A study of Mus musculus with 250 samples.

Results

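The colony stimulating factors and their receptors were followed across 5 tissues of mice with mammary tumors. The group comprises 8 of the 18194 genes that had a probe set with a single gene symbol. It holds the ligand genes Csf1, Csf2 and Csf3, and the receptor genes Csf1r, Csf2ra, Csf2rb, Csf2rb2 and Csf3r. The probe sets annotated with one of these symbols alone number 15 of the 45101 on the array, and all 8 genes were measured. Tumor-bearing mice were female FVB mice bitransgenic for MMTV-rtTA and TetO-NeuNT. In this model doxycycline turns on NeuNT, an activated rat Neu (Her2), where the MMTV promoter, active mostly in mammary epithelium, drives rtTA. Controls were female FVB littermates with TetO-NeuNT alone, so they had no rtTA to drive the oncogene, and they were matched to a tumor-bearing mouse by age and cage. Both groups were given doxycycline (2 mg/mL, with sucrose at 5%) in drinking water, beginning at an age of 8 weeks. A tumor-bearing mouse and its control were killed once the tumor had reached 1 cm, at an age not given in the labels. Breast (tumor tissue, in tumor-bearing mice), liver, spleen, blood without plasma (called blood here) and thymus gave 25 matched pairs each, or 250 arrays.

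M-CSF, encoded by Csf1, acts through the receptor tyrosine kinase Csf1r and maintains monocytes and tissue macrophages. G-CSF, encoded by Csf3, acts through Csf3r and drives the production and release of neutrophils. GM-CSF, encoded by Csf2, binds an alpha chain (Csf2ra) that signals through the common beta chain (Csf2rb), which the receptors for IL-3 and IL-5 share. Mice also carry Csf2rb2, a closely related beta chain specific to IL-3. The receptors are found mostly on myeloid cells and their precursors, whereas the ligands are secreted by many cell types, tumor cells among them.

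Promoter sequences are shown for the 3 receptor genes that rose together in spleen and blood and that matched RefSeq's mouse promoter table (GRCm38.p6, 250 bases before to 50 after the start of the gene, each given 5′ to 3′ on the gene's own strand). The promoters of Csf1 and Csf2 matched as well. Capitals mark the letters GAGGAA or their reverse complement TTCCTC, the core bound by PU.1, the myeloid transcription factor encoded by Spi1.

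Csf3r promoter, chr4:126024409-126024708, plus strand: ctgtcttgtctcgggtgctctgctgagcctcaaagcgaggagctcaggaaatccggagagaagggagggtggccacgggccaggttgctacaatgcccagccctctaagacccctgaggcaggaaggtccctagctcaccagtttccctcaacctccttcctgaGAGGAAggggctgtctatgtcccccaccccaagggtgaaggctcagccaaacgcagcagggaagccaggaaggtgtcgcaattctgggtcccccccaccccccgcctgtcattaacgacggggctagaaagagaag
Csf2ra promoter, chr19:61228369-61228668, minus strand: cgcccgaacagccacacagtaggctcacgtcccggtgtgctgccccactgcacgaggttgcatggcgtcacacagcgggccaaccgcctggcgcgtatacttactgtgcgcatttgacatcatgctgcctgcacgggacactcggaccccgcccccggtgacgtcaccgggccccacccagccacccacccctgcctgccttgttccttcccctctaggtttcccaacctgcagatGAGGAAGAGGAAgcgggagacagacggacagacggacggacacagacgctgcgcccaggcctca
Csf2rb2 promoter, chr15:78305672-78305971, minus strand: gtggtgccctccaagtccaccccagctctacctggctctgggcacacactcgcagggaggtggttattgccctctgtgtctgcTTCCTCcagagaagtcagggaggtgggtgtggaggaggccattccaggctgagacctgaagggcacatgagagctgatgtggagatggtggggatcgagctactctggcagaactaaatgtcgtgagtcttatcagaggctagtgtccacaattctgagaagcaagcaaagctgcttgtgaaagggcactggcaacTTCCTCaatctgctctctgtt

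The Csf3r promoter held 1 match, 86 bases before the start, the Csf2ra promoter held 2 side by side, and the Csf2rb2 promoter held 2 on the other strand, none overlapping another motif searched. These letters occurred in 28.3% of the 27025 mouse promoters of that length, so a match is common. The letters for C/EBP (TTGCNNAA), AP-1 (TGANTCA) and the TATA box (TATAAA) and those for NF-kB, searched on both strands, are not in these 3 windows, and AP-1 and TATA box letters occur in 7.93% and 14.2% of promoters. Among the other matched promoters, Csf1 held 1 NF-kB match and Csf2 held 1 C/EBP match, letters found in 1.62% (NF-kB) and 10.8% (C/EBP) of promoters.

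The values are log2 intensities of one probe set a gene, and a change is the log2 difference between a tumor-bearing mouse and its matched control, given as the mean ± SE over 25 pairs. A gene is called when limma's paired test gives an adjusted p under 0.05 (Benjamini-Hochberg over all genes of the tissue). The labels give each array of a tissue its own mouse. Of the 250 arrays, 5 were nearest in rank profile to a tissue other than their label. In spleen these were 1 array of a tumor-bearing mouse nearest thymus and 2 controls nearest breast, and in thymus 2 controls, 1 nearest spleen and 1 nearest breast. A further 5 controls (2 in liver, 2 in blood, 1 in thymus) correlated under 0.9 with the median profile of their group. These 10 arrays belong to 9 pairs, 3 in thymus and 2 each in liver, spleen and blood. All 25 pairs are used below, and values without the 9 pairs (23 pairs in liver, spleen and blood, 22 in thymus) are given beside the main results. The remaining arrays were described by summed intensities of marker genes, of which those for breast and blood do not set these tissues apart. The summed intensity of 5 thymocyte genes was 18001 to 40546 in thymus of tumor-bearing mice and 20391 to 44213 in control thymus, while the spleen array nearest thymus had 20435 and the lowest thymus control 390. Of 4 hepatocyte genes the sum was 88810 to 109882 in livers of tumor-bearing mice and 102758 to 109924 in control livers. For 4 B cell genes it was 10533 to 23808 in spleens of tumor-bearing mice and 21377 to 32322 in control spleens. Of 6 epithelial genes the sum was 16848 to 46384 in breast of tumor-bearing mice and 3593 to 38039 in control breast, and of 3 erythroid genes 22161 to 25764 in blood of tumor-bearing mice and 15451 to 25436 in control blood. The epithelial sum was 9913 to 21970 in control thymus, and the erythroid sum 4705 to 23570 in control spleen, so both overlap. No member, read from the probe set used for its gene, fell to the floor of log2 3.50, set at the 5th percentile of all intensities, in any array.

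Csf3r and the beta chain genes Csf2rb and Csf2rb2 rose in spleen, blood and liver, with the largest mean changes of the 8 genes there over all pairs. Csf1r and its ligand gene Csf1 fell in spleen and rose in blood, and Csf2 and Csf3 had changes of small size. In blood 6 members rose and none fell (Csf1, Csf1r, Csf2ra, Csf2rb, Csf2rb2 and Csf3r), where 12.9% of all genes were called, 8.66% rising and 4.27% falling. Without the 2 blood pairs the same 6 rose, with 10.3% of all genes rising. Spleen had 7 members called, with Csf2, Csf2ra, Csf2rb, Csf2rb2 and Csf3r rising and Csf1 and Csf1r falling, where 40.7% of all genes were called, 22.4% rising and 18.3% falling. Without the 2 spleen pairs these 7 were called again, with 56.2% of all genes called, 29.5% rising and 26.6% falling. In liver 4 members rose (Csf1, Csf2rb, Csf2rb2 and Csf3r) where 10.2% of all genes were called, 7.89% rising and 2.28% falling. Without the 2 liver pairs, 6 members rose, Csf1r and Csf2ra being added, while 30.3% of all genes were called, 13.7% rising. In breast 6 members were called, with Csf2ra, Csf3 and Csf3r rising and Csf1, Csf2rb and Csf2rb2 falling, but 62.3% of all genes were called there, 30.0% rising and 32.3% falling, so the count is near the background. A measure of RNA integrity had different means in the 2 breast groups. The log2 ratio of the 3′ to the 5′ control probe set averaged 0.03 ± 0.45 in tumor-bearing and 0.79 ± 0.78 in control breast for Gapdh, and 0.39 ± 0.32 in tumor-bearing and 0.78 ± 0.38 in control breast for Actb (SD, n = 25 each), and its part in the breast changes below was not tested. In thymus no member was called by limma, 2 members had an unadjusted p under 0.05, against 757 of all genes, and 2 of all genes were called (0.0110%). Without the 3 thymus pairs no member was called either, with 0.0824% of all genes called, all rising. Over the 8 members the median change was 0.99 in blood, 0.49 in liver, 0.37 in spleen, 0.18 in thymus and -0.06 in breast, against medians over all genes between -0.03 and 0.01. The members' median without the 9 pairs was 0.73 in blood, 0.33 in liver, 0.33 in spleen and 0.24 in thymus.

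**Figure D1:**
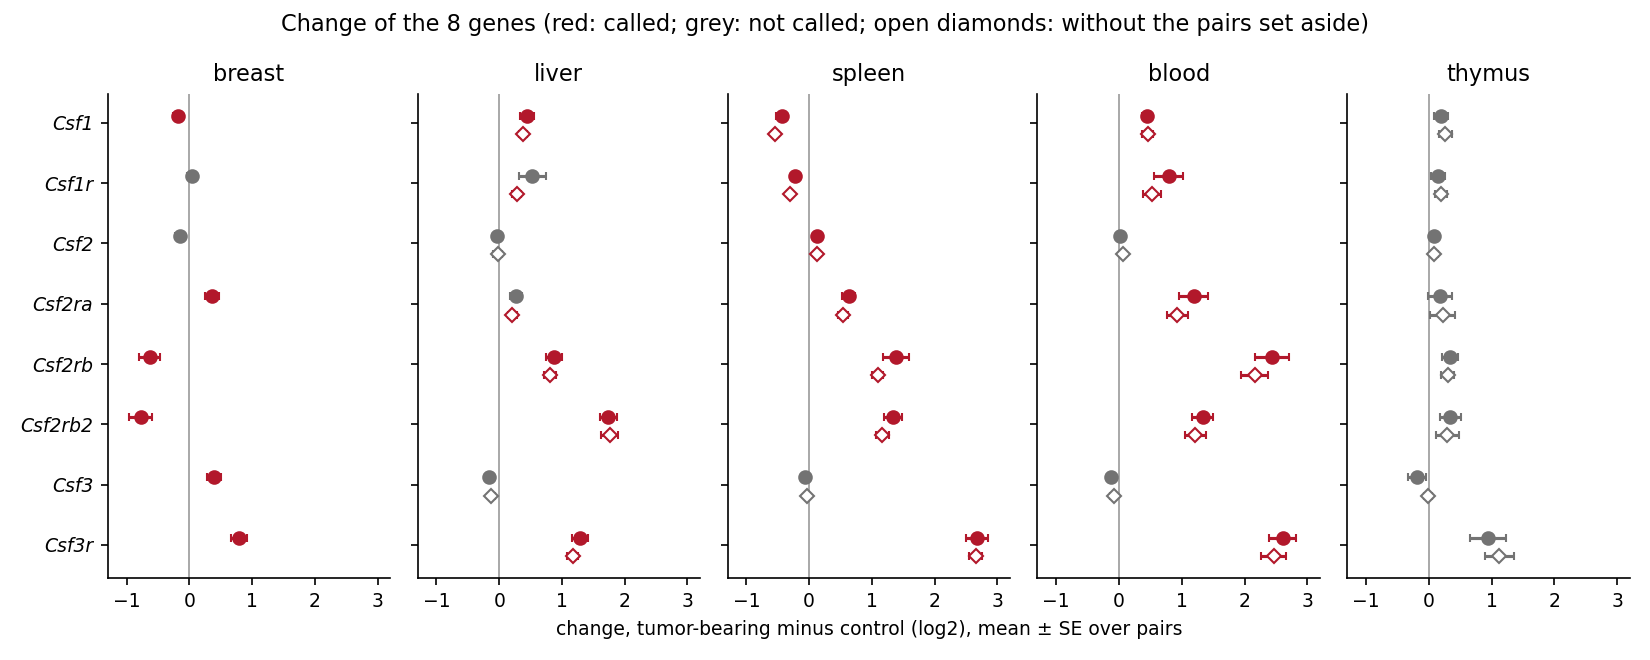
Change of each of the 8 genes (rows) in each tissue (panels), tumor-bearing minus control on the log2 axis, as mean ± SE over 25 pairs (filled circles) and without the pairs set aside (open diamonds); red marks called changes. Csf3r lies farthest to the right in spleen (2.68) and blood (2.61), and Csf2rb and Csf2rb2 lie left of 0 in breast.

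Csf3r, the G-CSF receptor, rose in breast, liver, spleen and blood, and its ligand gene Csf3 rose in breast alone among the 5 tissues tested. In blood, Csf3r ranged from 11.02 to 13.05 with a median of 11.88 in tumor-bearing mice, against 7.48 to 10.56 with a median of 9.31 in controls. Every tumor-bearing mouse lay above every control, a separation found for 0.368% of all genes in blood, and the change was 2.61 ± 0.21, adjusted p = 1.21e-09, or 6.09-fold. Without the 2 blood pairs it was 2.46 ± 0.20, adjusted p = 3.36e-09. In spleen the range was 6.39 to 12.12 with a median of 11.37 in tumor-bearing mice, against 5.91 to 9.31 with a median of 8.72 in controls. The lowest spleen values of both groups came from the arrays nearest another tissue. The change was 2.68 ± 0.18, adjusted p = 1.86e-11, higher in 25 of 25 pairs. Without the 2 spleen pairs the groups separated, 10.60 to 12.12 in tumor-bearing mice and 8.22 to 9.31 in controls, as did 1.38% of all genes, and the change was 2.65 ± 0.10, adjusted p = 1.85e-16.

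In liver, Csf3r ranged from 7.05 to 8.44 with a median of 7.73 in tumor-bearing mice, against 4.16 to 7.27 with a median of 6.72 in controls. The groups overlapped by a single tumor-bearing mouse, 24 of 25 lying above all controls, and the change was 1.29 ± 0.12, adjusted p = 1.23e-08 (1.17 ± 0.09, adjusted p = 2.32e-10 without the 2 liver pairs). In breast, where the tumor-bearing samples hold the tumor itself, Csf3r ranged from 7.03 to 9.12 with a median of 7.84 in tumor-bearing mice, against 6.40 to 8.91 with a median of 7.12 in controls. The groups overlapped, yet Csf3r was higher in 24 of 25 pairs (0.79 ± 0.13, adjusted p = 6.84e-06). In thymus the range was 6.64 to 10.42 with a median of 7.60 in tumor-bearing mice, against 5.82 to 11.79 with a median of 6.83 in controls. The highest thymus control was the array nearest spleen, and the change of 0.94 ± 0.29, adjusted p = 0.844 was not called. Without the 3 thymus pairs it was 1.12 ± 0.23, adjusted p = 0.0682, still short of the threshold, with 14 of 22 tumor-bearing mice above all controls.

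**Figure D2:**
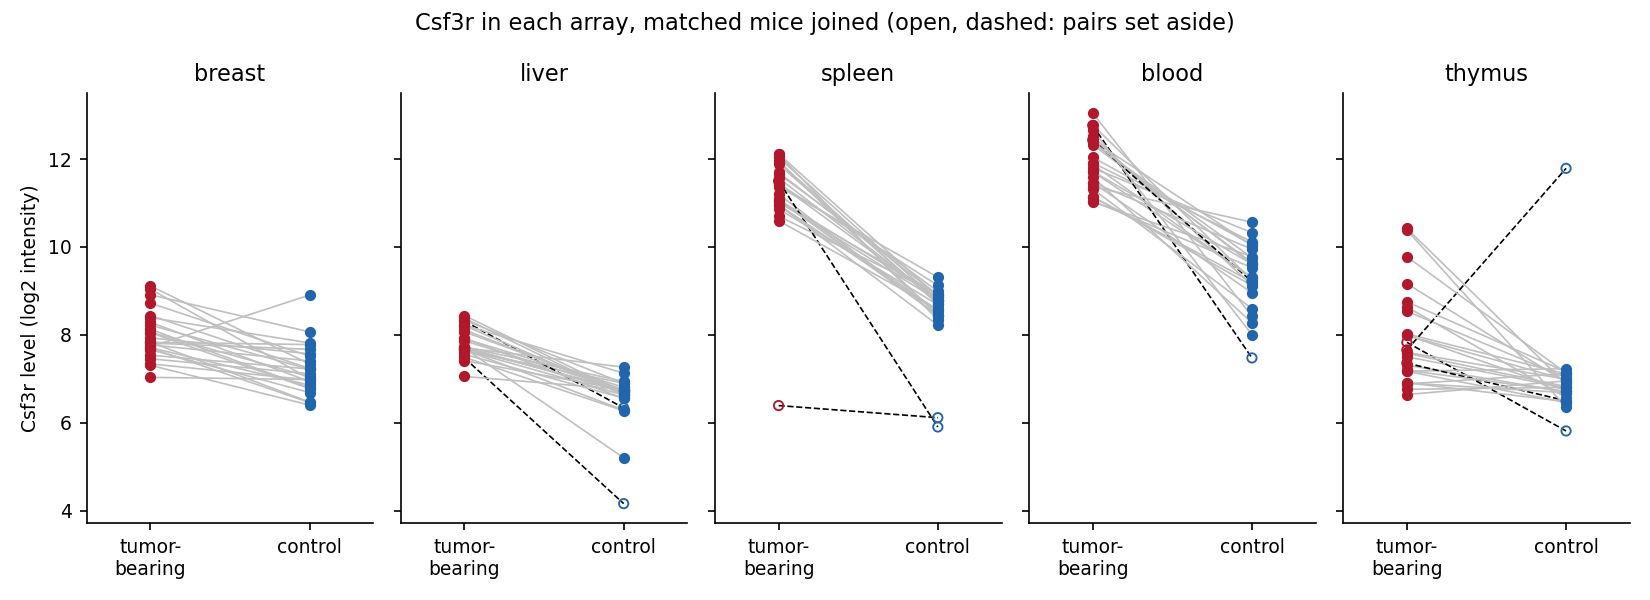
Csf3r level (log2 intensity) in each array of the 5 tissues, with tumor-bearing mice at the left and their matched controls at the right of each panel, joined by a line; open symbols and dashed lines are pairs set aside. All 25 tumor-bearing blood samples, from 11.02 up, lie above all 25 controls, and in thymus the tumor-bearing mice spread from 6.64 to 10.42.

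Neutrophil markers moved with Csf3r. Of the 15 measured neutrophil genes, 10 rose in blood, 15 in spleen, 14 in liver and 2 in thymus, while in breast 8 rose and 1 fell. The 2 in thymus were S100a9 (2.21) and S100a8 (1.88), the only genes called there, and 6 of the list rose without the 3 thymus pairs, where 0.0824% of all genes rose. Over all genes 8.66% rose in blood, 22.4% in spleen, 7.89% in liver and 0.0110% in thymus, and in breast 30.0% rose and 32.3% fell. Values in parentheses after a gene are log2 changes, here and in the lists below. In liver the 3 with the smallest p were Prtn3 (5.75), S100a9 (5.03) and S100a8 (5.25), a granule protease and 2 calcium-binding proteins of neutrophils. In spleen they were Mmp9 (3.01), Cxcr2 (2.24) and Prtn3 (3.27). In blood they were Cxcr2 (2.99), the chemokine receptor of neutrophils, Ngp (4.89) and Mmp8 (3.79). The summed intensity of the list ranged from 6610 to 50772 in livers of tumor-bearing mice, against 895 to 2193 in control livers, with no overlap. In blood the sums were 17939 to 84216 in tumor-bearing mice and 1008 to 11592 in controls. In whole tissue, more cells of a type and more RNA per cell cannot be told apart, and the part of the neutrophil genes in the Csf3r result was not tested.

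Pair by pair, the Csf3r change followed the mean change of the neutrophil list. Pearson's r over 25 pairs was 0.79 in blood, 0.84 in spleen, 0.80 in thymus, 0.75 in breast and 0.45 in liver. Spearman's rho lay between 0.63 and 0.80 in the same tissues. In a family of 15 relations, all 5 passed a two-sided permutation test with 100000 resamples (adjusted p between 2.14e-05 and 0.0266 for r, and between 3.75e-05 and 0.0011 for rho). Without the 2 pairs farthest from the median of the list r lay between 0.49 and 0.72, and without the 9 pairs between 0.64 and 0.75. Sample numbers in the labels were read as dividing the pairs into 15 later and 10 earlier ones, and these names rest on that numbering alone. Within the 15 later pairs r lay between 0.45 and 0.86, and within the 10 earlier pairs between 0.57 and 0.95.

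**Figure D3:**
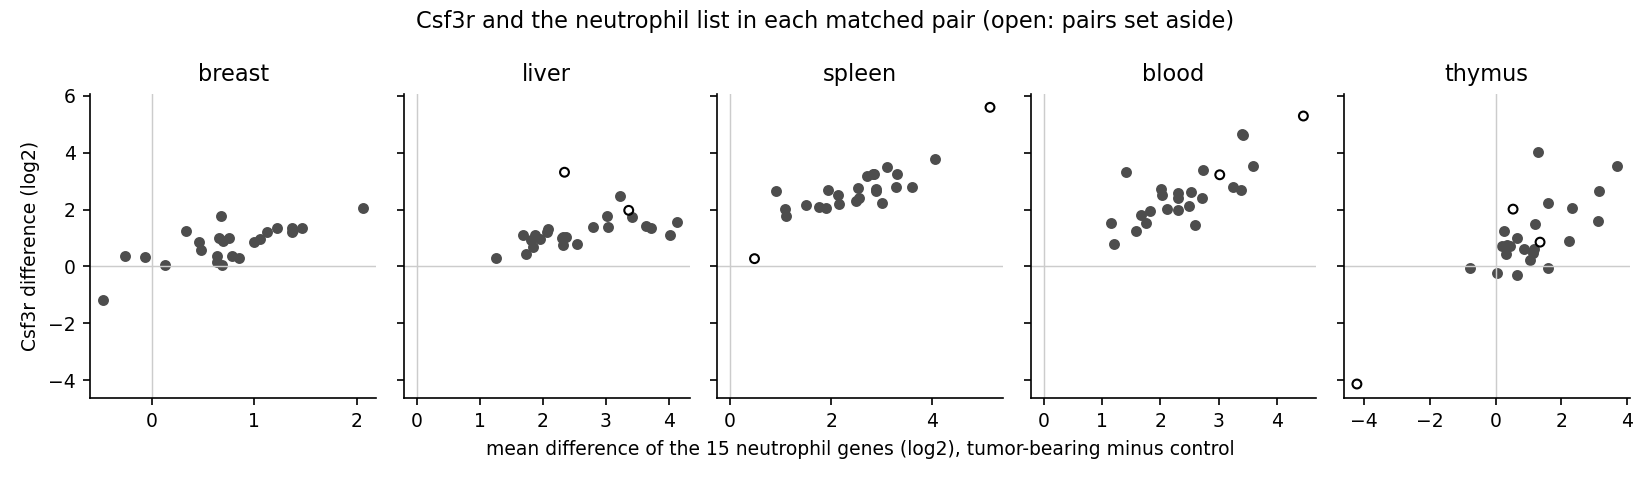
Within-pair difference of Csf3r (vertical axis, log2) against the mean within-pair difference of the 15 neutrophil genes (horizontal axis, log2), 1 point a pair and 1 panel a tissue; open points are pairs set aside. The points rise together in all panels, with r between 0.45 and 0.84, and the thymus point far below 0 is the pair whose control array was nearest spleen.

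Csf3, which encodes G-CSF, had dim signal throughout. In breast it ranged from 5.23 to 6.74 with a median of 5.80 in tumor-bearing mice, against 4.77 to 6.68 with a median of 5.46 in controls. The groups overlapped widely, but Csf3 was higher in 21 of 25 pairs and rose by a modest amount (0.39 ± 0.11, adjusted p = 0.0028). In liver (-0.16 ± 0.07), spleen (-0.06 ± 0.04), blood (-0.13 ± 0.06) and thymus (-0.20 ± 0.15) it was not called, with values on the lower side. A thymus control, of a pair set aside, stood at 8.91, and without the 3 thymus pairs it was -0.02 ± 0.06, adjusted p = 0.964. The change in breast exceeded those in liver, spleen, blood and thymus (differences between 0.45 and 0.59, adjusted p between 9.65e-05 and 0.0028). Of all genes, 40.9% differed between breast and liver, 45.5% between breast and spleen, 44.7% between breast and blood and 43.2% between breast and thymus. In the 15 later pairs the Csf3 change in breast was 0.47, and in the 10 earlier pairs 0.27, where it was not called. Across mice linked by their sample numbers, the breast change of Csf3 showed no relation that passed with the Csf3r change elsewhere, with r of 0.11 for liver, 0.03 for spleen, 0.10 for blood and 0.03 for thymus. Spearman's rho lay between 0.08 and 0.24, and the adjusted permutation p of r lay between 0.718 and 0.894. For blood, r was 0.42 without the 2 mice with the most distant Csf3 values and 0.49 without the 2 blood pairs, -0.07 within the later pairs and 0.43 within the earlier ones. For thymus, r was 0.32 without the 3 thymus pairs, 0.30 within the later pairs and -0.26 within the earlier ones.

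Csf1, encoding M-CSF, and its receptor gene Csf1r fell together in spleen and rose together in blood. In spleen, Csf1 ranged from 8.71 to 9.80 with a median of 9.39 in tumor-bearing mice, against 8.21 to 10.23 with a median of 9.91 in controls. It was lower in 23 of 25 pairs (-0.44 ± 0.08, adjusted p = 9.46e-05), and the 2 exceptions were the pairs with controls nearest breast. Without them Csf1 was lower in 23 of 23 pairs (-0.54 ± 0.04, adjusted p = 2.8e-11), with 22 of 23 tumor-bearing spleens below all controls. Csf1r in spleen ranged from 12.09 to 13.22 with a median of 13.02 in tumor-bearing mice, against 11.67 to 13.52 with a median of 13.30 in controls. Again 23 of 25 pairs were lower (-0.22 ± 0.07, adjusted p = 0.0154), and without the 2 spleen pairs all 23 were (-0.31 ± 0.04, adjusted p = 4.95e-08). In the 15 later pairs alone Csf1r in spleen was not called (-0.17, adjusted p = 0.305).

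In blood, Csf1 ranged from 6.59 to 7.82 with a median of 7.12 in tumor-bearing mice, against 6.25 to 7.58 with a median of 6.77 in controls. Higher values were found in 23 of 25 pairs (0.45 ± 0.08, adjusted p = 0.000263), though with quantile normalization the call was lost (adjusted p = 0.107). Of its 3 dimmer probe sets in blood, 2 rose (0.55 ± 0.12, adjusted p = 0.00174 and 0.21 ± 0.07, adjusted p = 0.0458) and 1 was not called (0.12 ± 0.10, adjusted p = 0.57). The one that rose by 0.21 was near the floor, averaging 4.20 in tumor-bearing mice and 3.99 in controls, with 2 values at it. Pair by pair its r with the brightest probe set was 0.19 in blood. Csf1r in blood ranged from 10.52 to 13.11 with a median of 11.48 in tumor-bearing mice, against 8.28 to 12.00 with a median of 10.88 in controls. It was higher in 19 of 25 pairs (0.79 ± 0.23, adjusted p = 0.0192), though neither the later (0.68) nor the earlier pairs (0.96) passed alone. The 2 lowest controls were the blood arrays that correlated poorly with their group, and without their pairs the change was 0.52 ± 0.15, adjusted p = 0.0117. In liver, Csf1 rose (0.44 ± 0.11, adjusted p = 0.00535), and without the 2 liver pairs the change was 0.38 ± 0.06, adjusted p = 3.04e-05. The call was lost with quantile normalization (adjusted p = 0.059), and the 3 dimmer Csf1 probe sets were not called in liver (0.09, 0.10 and 0.22). Csf1r in liver was not called over all pairs (0.53 ± 0.21, adjusted p = 0.126), where 1 control, of a pair set aside, stood at 6.84. Without the 2 liver pairs it rose (0.28 ± 0.07, adjusted p = 0.00395). In thymus neither gene was called (Csf1 0.19 ± 0.11, Csf1r 0.14 ± 0.11).

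**Figure D4:**
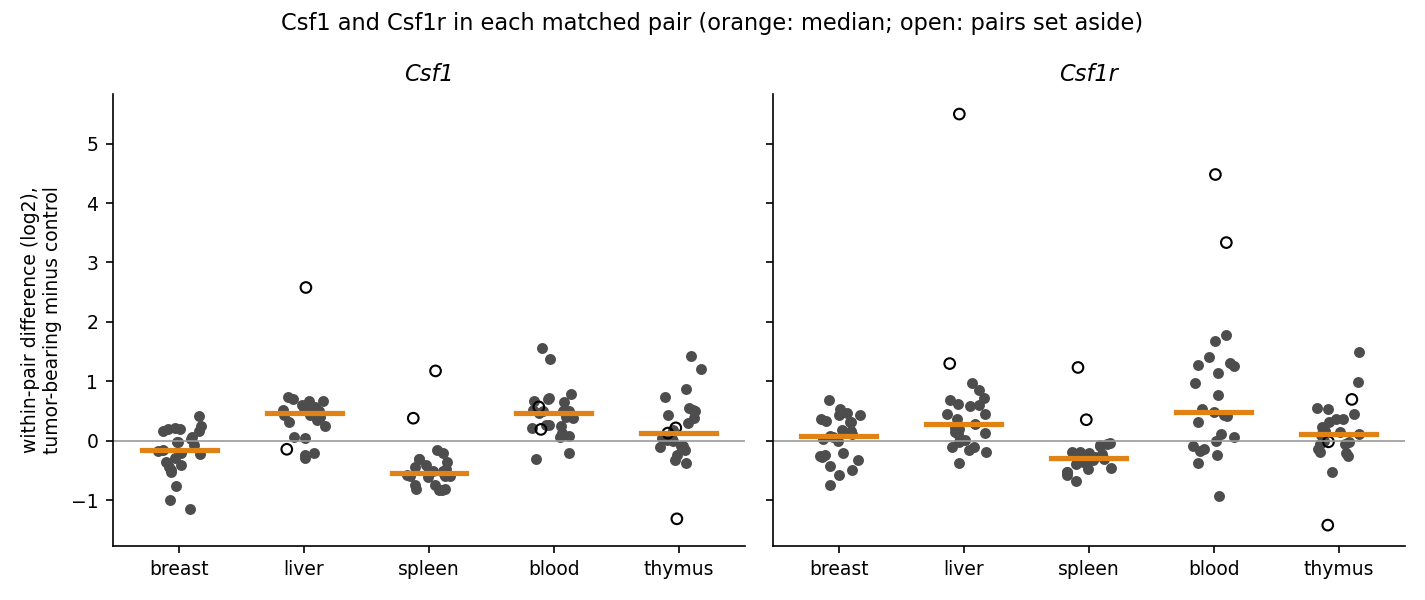
Within-pair difference (log2, tumor-bearing minus control) of Csf1 at the left and Csf1r at the right in each tissue, 1 point a pair with the median in orange; open points are pairs set aside. In spleen nearly all points lie below 0 (medians -0.54 and -0.29), in blood most lie above it (medians 0.47 and 0.48), and the highest Csf1r points in liver and blood are pairs set aside.

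In breast Csf1r did not pass the test (0.04 ± 0.08, adjusted p = 0.688), and it ranged from 12.11 to 13.21 with a median of 12.67 in tumor-bearing mice, against 11.58 to 13.26 with a median of 12.66 in controls. For Csf1 in breast the probe sets disagreed. The brightest of 4 fell slightly (-0.18 ± 0.08, adjusted p = 0.0424), while another rose (0.50 ± 0.11, adjusted p = 0.000209, over all probe sets). That probe set averaged 8.02 ± 0.31 in tumor-bearing mice and 7.51 ± 0.47 in controls (SD, n = 25 each), higher in 21 of 25 pairs. The 2 remaining Csf1 probe sets showed -0.08 ± 0.07 and -0.03 ± 0.09 and were not called, so Csf1 has no settled direction in breast. In spleen all 4 Csf1 probe sets fell, by 0.42 to 0.61 on the log2 scale. The part of the RNA integrity ratios above in the probe set difference was not tested. The 3 probe sets of Csf1r agreed in blood (changes between 0.72 and 0.79, all called) and in spleen (between -0.24 and -0.21, 2 of 3 called).

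Macrophage markers moved in both directions. Of 18 measured monocyte and macrophage genes, 2 rose and 1 fell in blood, 6 rose and 1 fell in spleen, 5 rose in liver, 9 rose and 5 fell in breast, and none was called in thymus. Without the 9 pairs the counts were 7 rising in liver, 6 rising and 7 falling in spleen, and 2 of each in blood. Over all genes 8.66% rose and 4.27% fell in blood, 22.4% rose and 18.3% fell in spleen, and 7.89% rose in liver. In breast 30.0% of all genes rose and 32.3% fell. Without the 9 pairs 13.7% of all genes rose in liver. In spleen 29.5% then rose and 26.6% fell, and in blood 10.3% rose and 11.5% fell. The median change of the list in blood was -0.15, where Csf1r rose. The within-pair change of Csf1r correlated with the mean change of the list in every tissue, with r of 0.96 in liver, 0.93 in spleen, 0.90 in thymus, 0.88 in breast and 0.58 in blood. Spearman's rho lay between 0.70 and 0.89, and every adjusted permutation p of r was at most 0.00283. Without the 9 pairs r was 0.88 in liver, 0.63 in spleen, 0.89 in thymus and 0.74 in blood, so the spleen value rested in part on 2 pairs. Without the 2 pairs farthest from the median of the list it lay between 0.49 and 0.88, within the later pairs between 0.73 and 0.94, and within the earlier pairs between 0.45 and 0.97. In breast Csf1r also tracked its ligand gene Csf1 (r = 0.82, rho = 0.80, adjusted permutation p = 2.14e-05 for r, 25 pairs, r = 0.79 without the 2 farthest, 0.82 in later and 0.78 in earlier pairs). This was tested for the brightest Csf1 probe set only, and pair by pair the dimmer ones had r of 0.38, 0.69 and 0.50 with it.

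Csf2, encoding GM-CSF, was dim in every tissue, while the genes of its receptor chains had larger mean changes in liver, spleen and blood. Csf2 rose in spleen alone among the 5 tissues and by little (0.12 ± 0.05, adjusted p = 0.0472, higher in 17 of 25 pairs), and neither the later (0.16, adjusted p = 0.0862) nor the earlier pairs (0.06, adjusted p = 0.528) passed alone, nor all pairs without the pair block (adjusted p = 0.0678). Its spleen levels ranged from 4.98 to 5.64 with a median of 5.33 in tumor-bearing mice, against 4.89 to 5.56 with a median of 5.21 in controls. The groups overlapped nearly throughout, and in breast (-0.15 ± 0.07), liver (-0.03 ± 0.08), blood (0.01 ± 0.06) and thymus (0.08 ± 0.07) it was not called.

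Csf2ra, the alpha chain that binds GM-CSF, rose in breast, spleen and blood. In blood it ranged from 7.36 to 9.47 with a median of 8.22 in tumor-bearing mice, against 4.20 to 7.92 with a median of 7.23 in controls. Tumor-bearing mice lay above all controls in 15 of 25 cases, and the change was 1.19 ± 0.23, adjusted p = 0.000586 (0.93 ± 0.16, adjusted p = 0.000173 without the 2 blood pairs). In spleen the range was 9.33 to 11.16 with a median of 10.20 in tumor-bearing mice, against 7.94 to 10.18 with a median of 9.73 in controls. The change there was 0.63 ± 0.11, adjusted p = 2.38e-05, higher in 23 of 25 pairs. In breast the ranges overlapped (8.34 to 9.32 with a median of 9.01 in tumor-bearing mice, against 6.75 to 9.53 with a median of 8.60 in controls), with a change of 0.36 ± 0.12, adjusted p = 0.00822. In liver it was not called (0.27 ± 0.09, adjusted p = 0.0756) but rose without the 2 liver pairs (0.21 ± 0.08, adjusted p = 0.0358). Its dimmer probe set had a positive change in all 5 tissues but was called in spleen only (0.40 ± 0.07, adjusted p = 8.91e-05), and pair by pair its r with the brighter one was 0.00 in breast and in blood, 0.42 in spleen, -0.49 in thymus and -0.63 in liver.

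Csf2rb, the beta chain shared by the receptors for GM-CSF, IL-3 and IL-5, rose in liver, spleen and blood and fell in breast. In blood it ranged from 8.53 to 11.10 with a median of 9.55 in tumor-bearing mice, against 4.65 to 9.24 with a median of 7.29 in controls. It was higher in 24 of 25 pairs, by 2.43 ± 0.27 or 5.39-fold (adjusted p = 2.56e-07), and by 2.16 ± 0.22, adjusted p = 1.21e-07 without the 2 blood pairs. In spleen the range was 9.79 to 11.93 with a median of 11.04 in tumor-bearing mice, against 5.69 to 10.37 with a median of 10.09 in controls. All 25 pairs were higher (1.38 ± 0.21, adjusted p = 5.63e-06). Without the 2 spleen pairs the groups did not overlap, 10.42 to 11.93 in tumor-bearing mice and 9.67 to 10.37 in controls, as for 1.38% of all genes. The change was then 1.09 ± 0.09, adjusted p = 9.56e-11. In liver Csf2rb ranged from 7.66 to 9.05 with a median of 8.44 in tumor-bearing mice, against 5.83 to 8.58 with a median of 7.63 in controls. It was higher in 24 of 25 pairs (0.87 ± 0.13, adjusted p = 2.01e-05).

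Csf2rb2, the IL-3-specific beta chain of the mouse, rose in liver, spleen and blood and fell in breast. Its mean change was highest in liver, though the difference from spleen did not pass over all pairs (liver minus spleen 0.41 ± 0.23, adjusted p = 0.228) and passed without the 9 pairs (0.60, adjusted p = 0.0341). In liver it ranged from 6.43 to 9.57 with a median of 7.87 in tumor-bearing mice, against 5.48 to 7.30 with a median of 6.21 in controls. It was higher in all 25 pairs, by 1.74 ± 0.13, adjusted p = 1.4e-10, or 3.34-fold, and without the 2 liver pairs the change was similar (1.76 ± 0.14, adjusted p = 1.54e-10). In spleen the range was 8.42 to 10.17 with a median of 9.06 in tumor-bearing mice, against 5.49 to 8.44 with a median of 8.05 in controls. All 25 pairs were higher (1.34 ± 0.15, adjusted p = 4.92e-08), with 24 of 25 tumor-bearing spleens above all controls. In blood it ranged from 5.38 to 7.74 with a median of 6.18 in tumor-bearing mice, against 4.43 to 5.83 with a median of 5.06 in controls. The change was 1.33 ± 0.17, adjusted p = 2.03e-06, higher in 24 of 25 pairs. The 2 genes are close copies, and a probe set annotated with both, and so not counted as a member, showed 0.89 ± 0.14 in blood, 0.58 ± 0.07 in spleen and 0.18 ± 0.07 in liver, called in blood and spleen only. How far signal crosses between the copies was not tested.

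In breast both beta chains fell, unlike in liver, spleen and blood, and breast differed from each of the 4 other tissues for both genes (adjusted p of at most 0.00203). In those contrasts 40.9% to 45.5% of all genes differed. Csf2rb ranged from 7.77 to 10.08 with a median of 9.07 in tumor-bearing mice, against 8.68 to 10.51 with a median of 9.94 in controls, and it fell (-0.63 ± 0.17, adjusted p = 0.00215). Csf2rb2 ranged from 6.21 to 8.69 with a median of 7.59 in tumor-bearing mice, against 7.75 to 9.34 with a median of 8.38 in controls, with 15 of 25 tumor-bearing mice below all controls, and it fell too (-0.78 ± 0.18, adjusted p = 0.000398). Between the 15 later and 10 earlier pairs, as read from sample numbers alone, the mean fall was larger in the later pairs. In the later pairs Csf2rb was 7.77 to 9.90 (median 9.04) in tumor-bearing mice, against 8.68 to 10.51 (median 10.10) in controls, lower in 13 of 15 pairs. In the earlier pairs it was 8.47 to 10.08 (median 9.82) in tumor-bearing mice and 9.12 to 10.14 (median 9.35) in controls, lower in 6 of 10. The change was -1.02 in later pairs and -0.05 in earlier pairs (later minus earlier -0.97 ± 0.30, adjusted p = 0.0630). For Csf2rb2 it was -1.21 in later and -0.12 in earlier pairs, and this difference passed (later minus earlier -1.09 ± 0.30, adjusted p = 0.0385, where 3.91% of all genes passed). Leaving out pairs with an array that stands apart, by a low correlation with its group's median profile, kept 14 later and 7 earlier pairs. The change was then -1.12 in later and -0.23 in earlier pairs for Csf2rb, and -1.27 and -0.35 for Csf2rb2. The difference was not tested over these pairs. Lymphocyte markers also varied between pairs. The mean change of 5 T cell genes was -3.75 to -0.28 (median -2.38) over the later pairs and -1.55 to 2.74 (median -0.28) over the earlier ones. For 4 B cell genes it was -4.58 to 0.14 (median -3.10) over the later pairs and -2.64 to 3.53 (median -0.0012) over the earlier ones. The mean change of 7 dendritic cell genes was -0.57 over the later and 0.01 over the earlier pairs, and that of 5 progenitor genes -1.11 and -0.44. For 10 eosinophil, basophil and mast cell genes it was -0.53 and -0.36. For 18 monocyte and macrophage genes it was 0.03 and 0.26, and for 15 neutrophil genes 0.67 and 0.90. The difference between later and earlier pairs was not tested for any of these lists. The part of these markers, and of the RNA integrity ratios of breast, in the fall of the beta chains was not tested. Of the 2 Csf2rb probe sets, the dimmer fell as well (-0.89 ± 0.19, adjusted p = 0.000236), while the probe set shared by both genes did not pass the test (-0.01 ± 0.09).

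**Figure D5:**
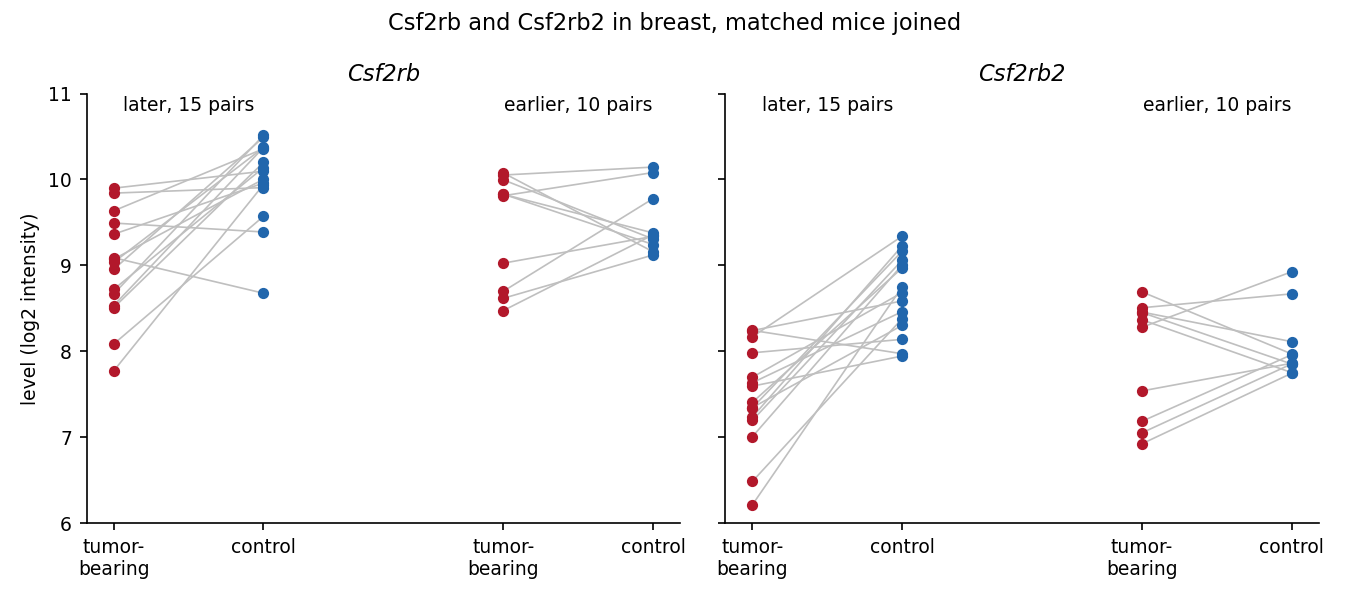
Csf2rb at the left and Csf2rb2 at the right in breast (log2 intensity), with tumor-bearing mice left of their matched controls, joined by lines, in the 15 later (left of each panel) and the 10 earlier pairs. In the later pairs most lines rise toward the control (13 and 14 of 15), and in the earlier pairs they cross (6 of 10 lower in tumor-bearing mice for each gene).

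The change differed between tissues for most receptor genes and for Csf1. Over liver, spleen, blood and thymus it differed for 6 of 8 members (all but Csf2 and Csf3, adjusted p between 1.17e-09 and 0.000572), against 30.0% of all genes. Csf1 and Csf1r had opposite signs in spleen and blood, with spleen minus blood of -0.89 ± 0.13, adjusted p = 4.48e-08 for Csf1 and -1.01 ± 0.22, adjusted p = 0.000241 for Csf1r, where 16.1% of all genes passed. Csf3r rose further in spleen than in liver (liver minus spleen -1.39 ± 0.29, adjusted p = 7.49e-05, with 19.2% of all genes passing). Between spleen and blood no difference in Csf3r was shown (0.07 ± 0.29, adjusted p = 0.93). Csf2rb rose further in blood than in spleen (spleen minus blood -1.05 ± 0.27, adjusted p = 0.00254), whereas for Csf2rb2 the difference was 0.01 ± 0.23, adjusted p = 0.993. Csf2rb2 was dim in control blood (median 5.06), and the part of dim signal in that difference was not tested. Csf2rb2 rose further in liver than in thymus (liver minus thymus 1.40 ± 0.23, adjusted p = 2.94e-06, 4.23% of all genes passing). The between-tissue tests treat tissues of one mouse as independent, and with mice linked by sample number 40 rather than 39 of the 80 contrasts passed. Without the 9 pairs 44 passed, among them the 39.

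Because tissues appear to have been normalized separately, baseline levels were set across tissues only by the percentile of a gene within its own array. Csf3r stood at a percentile of 96.2 in control blood (median of 25), then at 61.4 in spleen, 51.7 in liver, 48.4 in breast and 37.7 in thymus, and only blood lay apart from its neighbour, all later neighbours overlapping in range. Csf1r was high everywhere, between 93.6 in thymus and 99.4 in spleen, with liver (96.6), blood (98.3) and breast (98.8) between them. Csf2rb ran from 61.6 in liver through thymus (73.5), spleen (79.2) and blood (82.4) to 86.2 in breast. Csf2rb2 ran from 46.3 in liver through blood (48.1), spleen (53.3) and thymus (53.5) to 67.4 in breast. Csf2ra ran from 58.2 in liver through thymus (60.5), breast (69.2) and spleen (74.4) to 82.1 in blood. For the ligands, Csf1 ran from 56.0 in thymus through liver (62.5), breast (74.2) and blood (77.3) to 77.4 in spleen. Csf2 lay between 22.1 in breast and 44.9 in blood, with spleen (25.2), liver (26.4) and thymus (32.5) between. Csf3 lay between 17.5 in thymus and 53.1 in blood, with spleen (26.7), breast (31.5) and liver (42.8) between. A percentile also depends on how bright the rest of its array is. The median array intensity was 25.2 in blood, with a median of 13.8% of values at the floor, and 129 in thymus, with 0%. The part of this in the percentiles of the dim genes Csf2 and Csf3 was not tested, so their order is not a ranking of expression. For all members but Csf3r, neighbouring tissues overlapped in range over all controls, including those of the pairs set aside. Without them blood and thymus no longer overlapped for Csf2, nor spleen and thymus for Csf3, and the other overlaps held. For Csf2rb the control range in spleen was 28.5 to 82.8 over all controls and 74.8 to 82.8 without those pairs, and in liver 41.9 to 94.0 and 53.5 to 72.5.

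Of the genes that induce colony stimulating factors, those with the smallest adjusted p are named here. Il1b, encoding interleukin-1 beta, rose in blood (2.75), spleen (2.19), breast (2.15) and liver (0.89). Il33, an alarmin cytokine, rose in spleen (1.45), liver (1.37) and breast (0.75), and Hbegf, an EGF receptor ligand, rose in breast (3.32) and fell in spleen (-0.28). Of the 8 measured inducers, 5 rose and 1 fell in breast, 3 rose in liver, 3 rose and 2 fell in spleen, 1 rose in blood and none was called in thymus. Over all genes 30.0% rose and 32.3% fell in breast, 7.89% rose in liver, 22.4% rose and 18.3% fell in spleen and 8.66% rose in blood. The same shares stand behind the counts over all pairs in the lists that follow. Without the 2 spleen pairs 3 inducers rose and 3 fell in spleen, where 29.5% of all genes rose and 26.6% fell. The median changes of the inducers were 0.00 in blood, 0.06 in spleen, 0.22 in liver, 0.02 in thymus and 0.44 in breast. With the 9 pairs left out they were 0.07 in blood, 0.04 in spleen, 0.09 in liver and 0.11 in thymus. Among 5 genes that share a chain or a receptor with the members, few moved. Il34, the other ligand of Csf1r, rose in breast (0.35), where Il5ra, the IL-5 receptor alpha chain, fell (-0.16). In spleen Il3ra rose (0.21) and Il5ra fell (-0.36). Liver, blood and thymus had no call in that list, although 1 gene rose in liver without the 2 liver pairs, where 13.7% of all genes rose.

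Among signalling genes downstream of the receptors, Socs3, a feedback inhibitor of cytokine receptors, rose in liver (3.02), blood (2.70), spleen (1.45) and breast (1.07), and its thymus value was 0.14. Stat3, the transcription factor activated by G-CSF, rose in liver (1.23), blood (1.10) and breast (1.09), while in spleen it was -0.03. Pim1, a kinase gene induced by cytokines, rose in spleen (1.21), blood (0.84) and liver (0.55) and fell in breast (-0.58), and Fes, a myeloid tyrosine kinase gene, rose in blood (1.24), spleen (0.74) and breast (0.33). In breast, Stat5b (-1.06) and Stat5a (-0.81) fell and Bcl2l1, a survival gene, rose (0.69), as it did in spleen (0.78). Over the 22 measured signalling genes, 11 rose and 6 fell in breast, 6 rose in liver, 7 rose and 3 fell in spleen, 8 rose in blood and none was called in thymus. Without the 9 pairs 10 rose in liver, 7 rose and 11 fell in spleen, and 9 rose and 2 fell in blood. Of all genes 13.7% then rose in liver, 29.5% rose and 26.6% fell in spleen, and 10.3% rose and 11.5% fell in blood. The list medians were 0.30 in blood, 0.00 in spleen, 0.28 in liver, 0.05 in thymus and 0.17 in breast. With the 9 pairs left out they were 0.13 in blood, -0.10 in spleen, 0.12 in liver and -0.04 in thymus.

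Among the lineage transcription factors of granulocytes and macrophages, Cebpd, a C/EBP factor of the acute phase, rose in blood (2.83), spleen (1.43), liver (1.36) and breast (1.13). Spi1, encoding PU.1, rose in blood (1.92), spleen (0.53), liver (0.46) and breast (0.36). In spleen Cebpb (0.70) and Gfi1 (1.50), factors of granulocyte production, rose. In breast Runx1 rose (2.18) and Cebpa, which is also abundant in adipocytes, fell (-2.38). Adipocyte markers fell there as well, all 4 measured ones with a median of -3.94. Of the 10 measured factors, 6 rose and 4 fell in breast, 4 rose in liver, 5 rose and 1 fell in spleen, 3 rose in blood and none was called in thymus. Without the 9 pairs, 6 rose and 4 fell in spleen (where 29.5% of all genes rose and 26.6% fell), 5 rose and 1 fell in liver, and 3 rose and 1 fell in blood. Of all genes 13.7% then rose and 16.6% fell in liver, and 10.3% rose and 11.5% fell in blood. The median change of these factors was 0.19 in blood, 0.31 in spleen, 0.24 in liver, 0.12 in thymus and 0.61 in breast.

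The genes most like each member were sought among 18011 genes by Pearson's r of within-pair differences, after the mean of each tissue was removed. This is a description over 125 pairs, among which the same mice recur across tissues by sample number. Here r over all 125 pairs is followed, in parentheses, by r without the 9 pairs. Csf3r was most like Il1b (0.80, 0.68), Fpr2 (0.80, 0.69) and Mmp8 (0.76, 0.72). Csf1r was most like Cst3 (0.90, 0.77), Lyz2 (0.88, 0.74) and Ctss (0.88, 0.73), and Csf2ra was most like Fcgr3 (0.85, 0.80), Man2b1 (0.83, 0.84) and Cd68 (0.80, 0.78). For the beta chains these were Ncf1 (0.85, 0.78), AB124611 (0.83, 0.78) and Myo1f (0.83, 0.71) with Csf2rb, and Myo1f (0.69, 0.66), AB124611 (0.68, 0.64) and Ncf4 (0.67, 0.69) with Csf2rb2. For the ligand genes these were Themis2 (0.65, 0.59), Hhex (0.65, 0.48) and Rasgrp3 (0.64, 0.35) for Csf1, Zic2 (0.58, 0.51), Scn11a (0.56, 0.47) and Dscaml1 (0.56, 0.45) for Csf2 and Scp2d1 (0.70, 0.35), 3110099E03Rik (0.70, 0.43) and Adam1a (0.70, 0.40) for Csf3. Of these 24 genes, 5 were also among the 3 nearest without the 9 pairs (Themis2 for Csf1, Man2b1 for Csf2ra, AB124611 for Csf2rb, Ncf4 for Csf2rb2 and Mmp8 for Csf3r). The nearest genes were then Stfa2l1 (0.81) and Cxcr2 (0.72) for Csf3r, Slc11a1 (0.88), Asah1 (0.82) and Fcgr3 (0.80) for Csf1r, Man2b1 (0.84) for Csf2ra, Tgfbi (0.83) for Csf2rb, Tbc1d2b (0.70) for Csf2rb2, Themis2 (0.59) for Csf1, Sec1 (0.54) for Csf2 and Wnt7b (0.60) for Csf3. Among the members, Csf2rb and Csf2rb2 were most alike (r = 0.81, and 0.83 without the 9 pairs), while Csf3 and Csf3r had r of -0.08, and 0.03 without the 9 pairs.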

How the data were processed

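Per the labels, total RNA was hybridised to 1 mouse array per tissue and mouse. The authors deposited a linear intensity for each of the 45101 probe sets (5.17 to 47198, none missing). How they summarised and normalised these is not given in the sources used here. The deposited intensities were raised to at least the 5th percentile (11.3) and turned into log2 values. A gene was read from its probe set of highest mean, which gave 18194 genes. Annotation gave 34958 probe sets 1 symbol, 932 several and 9211 none, and symbols were updated by Entrez number (34754 matched, GRCm38.p6). Each tissue had its own limma fit (limma 3.58.1, R 4.3.3), in which the age- and cage-matched pair named in the labels was a block, with p adjusted by Benjamini-Hochberg over all genes. Changes of 125 pairs were compared between tissues in 1 further limma fit. Correlations used 100000 permutations (Python 3.11.15, numpy 2.4.6, pandas 2.3.3, scipy 1.17.1). The fit was tested on simulated data. The number of arrays limits the precision.

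The members, the 18 gene lists (162 genes) and the tests were chosen with earlier results of these data known. Genes named from lists are up to 3 called in a tissue with the smallest p, with their values in other tissues, and the 3 genes most like each member. Alternatives changed the floor, dim genes, normalization, the block, the pairs used and the probe set. Leaving out 9 pairs, and the minimum correlation of 0.9 behind it, were chosen after seeing the data. Earlier and later pairs, and mice linked between tissues, were read from sample numbers in the labels.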

Additional observations from a re-analysis of the deposited data

Results flagged for a closer look

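Each member's change was compared between tissues in 10 contrasts, and contrasts that passed at an adjusted p under 0.05 were counted. For Csf2rb 8 of 10 differed, for Csf2rb2 7, for Csf1 6 and for Csf3r 6. The Csf1 contrasts against breast rest on its brightest probe set, and Csf1 has no settled direction in breast, where another probe set rose (0.50). For Csf3 4 contrasts differed, all 4 against breast. Csf1r and Csf2ra each differed in 3, and Csf2 in 2, both against breast. Of all genes, 40.9% to 45.5% passed in a contrast against breast and 4.23% to 19.2% in one of the others. The Csf2rb2 change in breast also differed between the 15 later and the 10 earlier pairs by -1.09 on the log2 scale (adjusted p = 0.0385, where 3.91% of all genes passed). Without pairs holding an array that stands apart, the change was -1.27 in 14 later and -0.35 in 7 earlier pairs, a difference not tested.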

How the results depend on the processing

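Members and tissues were recomputed under each alternative, in 382 comparisons other than those of single probe sets. Of these, 351 stayed on their side of the threshold, 9 of them with a change of sign in a value called under neither setting, 20 kept the direction but lost the call, 11 gained one, and 0 called values reversed. Earlier pairs alone, with fewer samples, gave 1 member called in breast, 1 in liver and 3 in blood, against 6, 4 and 6 over all pairs. Leaving out every pair with an array that stands apart gave 7 members in liver and 1 in thymus (Csf3r, 0.97, adjusted p = 0.0322), against 4 and 0, and the cause was not tested. Without the replicate block 6 members were called in blood, 5 in spleen, 5 in breast, 4 in liver and 0 in thymus, the calls lost being Csf1 in breast and Csf1r and Csf2 in spleen. The member counts under these settings were not compared with the share of all genes called under each. That share was 10.2% in liver over all pairs and 30.3% without the liver pairs among the 9. The gain from 4 to 7 members in liver is therefore not shown to be particular to the members. Csf1 in breast reversed with another probe set (0.50). Between tissues 39 of 80 contrasts passed, and 40 to 46 under the 4 alternatives. Leaving out the 9 pairs added Csf1r and Csf2ra in liver and ended no call of a member. Dim signal limits Csf2 and Csf3, and Csf2rb2 in control blood.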

Other observations

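Markers of other cell types moved beside the receptors in several tissues. In spleen 8 of 10 eosinophil, basophil and mast cell genes rose (median change 0.61), as did 3 of 3 erythroid, 3 of 6 endothelial and 2 of 5 progenitor genes, while 1 of 5 T cell, 1 of 4 B cell, 2 of 7 dendritic cell and 1 of 6 endothelial genes fell. Without the 2 spleen pairs 5 of 5 T cell, 4 of 4 B cell and 6 of 7 dendritic cell genes fell there, and 5 of 6 endothelial and 3 of 5 progenitor genes rose. In liver 5 of 6 fibroblast genes (median 0.82) and 4 of 6 endothelial genes (median 0.51) rose, and 6 of 6 and 6 of 6 without the 2 liver pairs. In breast 5 of 6 epithelial genes rose (median 1.72), while 5 of 6 endothelial, 6 of 7 dendritic cell, 5 of 5 T cell and 4 of 4 B cell genes fell and 1 endothelial and 1 dendritic cell gene rose. Also in breast, 4 of 5 progenitor genes fell and 1 rose, and 4 of 10 eosinophil, basophil and mast cell genes fell and 2 rose. In blood 3 of 4 B cell and 2 of 5 T cell genes fell, and 3 of 4 and 4 of 5 without the 2 blood pairs. In thymus none of these genes was called over all 25 pairs. Over all genes 30.0% rose and 32.3% fell in breast. In spleen 22.4% rose and 18.3% fell, and 29.5% and 26.6% without the 2 spleen pairs. In liver 7.89% rose, and 13.7% without the 2 liver pairs. In blood 4.27% fell, and 11.5% without the 2 blood pairs. The lists are short, and their counts were not tested against these shares. The part of these markers in the changes of the receptor genes was not tested.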
